A study of Mus musculus with 6 samples.

Results

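The CCN family is a set of 6 mouse genes, Ccn1 to Ccn6, whose older names are Cyr61, Ctgf, Nov, Wisp1, Wisp2 and Wisp3. All 6 were found by symbol among the 55487 genes of the deposited tables, and 5 of them passed the filter on low counts. The 6 RNA-seq libraries were made from untreated MEFs, the connective-tissue cells that grow from dissociated mouse embryos, under ordinary culture. Wild-type (WT) and knockout (KO) MEFs were each taken at passages 2, 3 and 4, a passage being 1 round of detaching and replating, giving 1 library per genotype at every passage. The labels name neither the deleted gene nor the strain, the age of the embryos, or whether the passages of a genotype came from 1 culture, so p-values measure only the spread between these libraries, which may be technical. The titles gave the genotype. At passages 3 and 4 the genotype tag of the library titled KO says WT instead, so KO below means the title.

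CCN proteins are matricellular: they are secreted into the extracellular matrix and act there as signals rather than as scaffold. They are built from modules that resemble an IGF-binding domain, a von Willebrand factor type C repeat, a thrombospondin type 1 repeat and a C-terminal cystine knot, and they bind integrins, heparan sulfate proteoglycans, LRP receptors and growth factors. Ccn1 and Ccn2 are known as immediate-early genes of fibroblasts and as standard targets of the YAP and TEAD transcription factors. Ccn2 is also a target of TGF-beta and is tied to fibrosis. Ccn3 can oppose Ccn2 in cultured cells, and its product binds NOTCH1. Ccn4 was found as a WNT target, Ccn5 encodes a member that lacks the cystine knot, and Ccn6 is linked to cartilage.

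The libraries held 24853121 to 67760880 expected counts. Markers of fibroblasts were abundant, with 37955 to 49603 CPM (counts scaled to library size by TMM) summed over 10 genes in WT and 21562 to 25667 CPM in KO. Xist had 417 to 567 CPM in the KO libraries and 5 to 12 counts in the WT libraries, while the Y-linked gene Ddx3y had 73.4 to 88.0 CPM in WT and 0 to 23 counts in KO. The genotype and the sex of the cells therefore cannot be told apart in any comparison below.

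All 6 genes have a coding transcript of 5 exons in GENCODE release M21 (GRCm38). Ccn1 lies on chromosome 3 (145646976 to 145649981, minus strand), Ccn2 and Ccn6 on chromosome 10 (24595442 to 24598683, plus strand, and 39150970 to 39163794, minus strand), Ccn3 and Ccn4 on chromosome 15 (54745702 to 54754039 and 66891320 to 66923201, plus strand) and Ccn5 on chromosome 2 (163820861 to 163833146, plus strand). The longest coding sequence of Ccn5 had 251 codons, against 348 to 379 in the other members. Of the 64-base words in their transcripts, compared in the sense direction, 0.356% were shared with another gene for Ccn3 and 0% for the other 5. The Ccn2 locus overlaps Gm15270, a noncoding transcript on the opposite strand with 23.76 to 130 counts per library, and the end of Ccn6 overlaps Tube1, also on the opposite strand. Expected counts of Ccn2 and Gm15270, and of Ccn6 and Tube1, carried fractions in some libraries that add up to whole numbers within each pair, so some reads were divided between overlapping genes. For the counting, use of strand was not stated.

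The members differed widely in abundance, from among the most abundant transcripts to the limit of detection. Levels are compared between genes as TPM, a transcript level corrected for length. In the WT libraries of passages 2, 3 and 4, Ccn1 had 722.5, 746 and 716 TPM, and in KO it had 798, 854 and 722 TPM. This placed it between rank 141 and rank 181 of all genes. Ccn2 followed with 347, 460 and 530 TPM in WT and 653, 773 and 867 TPM in KO. Its WT levels lay below every Ccn1 level of that genotype, while its KO range overlapped that of Ccn1, and only in the KO library of passage 4 was it the higher of the pair. Ccn4 came next with 270, 240 and 311 TPM in WT and 208, 236 and 300 TPM in KO, below Ccn2 in every library.

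Ccn3 and Ccn5 shared the next place in WT and parted in KO. Ccn3 had 94.7, 85.7 and 88.5 TPM in WT and 19.1, 11.7 and 25.6 TPM in KO. Ccn5 had 86.8, 85.2 and 79.9 TPM in WT and 59.1, 73.0 and 92.3 TPM in KO. The WT ranges of these 2 genes overlapped, whereas in KO every Ccn3 level was below every Ccn5 level. By rank Ccn3 lay between 1477 and 1621 in WT and between 5837 and 8386 in KO.

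Ccn6 was barely detected. It had 1, 0 and 1.6 expected counts in WT and 1.64, 1 and 0 in KO at passages 2, 3 and 4, where fractions arise because ambiguous reads are shared between genes. Each library was under 3 counts, the number that a count of 0 allows, which corresponds to 0.0431 to 0.124 CPM and covers counting error only. No fold change is given for it, and it did not enter the tests.

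The ends of this range are shown by their upstream sequence, since Ccn1 is the member with the highest level in 5 of the 6 libraries and Ccn6 the one with the lowest in all 6. RefSeq promoter windows (GRCm38.p6) were at hand for these 2 of the 6 members, and each is printed as the 250 bases before the start, 5′ to 3′ on the gene's strand. Capitals mark matches to CATTCC, the core bound by TEAD factors, to TGACGT, the core of the cAMP response element, or to TATAAA, the TATA box, searched on both strands. The windows are chr3:145649986-145650235 for Ccn1 and chr10:39163795-39164044 for Ccn6, both on the minus strand.
Ccn1: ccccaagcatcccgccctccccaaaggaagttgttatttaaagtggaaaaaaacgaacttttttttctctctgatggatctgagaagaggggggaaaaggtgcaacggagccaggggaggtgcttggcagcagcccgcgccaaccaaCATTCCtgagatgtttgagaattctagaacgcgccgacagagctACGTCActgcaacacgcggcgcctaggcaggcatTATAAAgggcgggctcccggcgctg
Ccn6: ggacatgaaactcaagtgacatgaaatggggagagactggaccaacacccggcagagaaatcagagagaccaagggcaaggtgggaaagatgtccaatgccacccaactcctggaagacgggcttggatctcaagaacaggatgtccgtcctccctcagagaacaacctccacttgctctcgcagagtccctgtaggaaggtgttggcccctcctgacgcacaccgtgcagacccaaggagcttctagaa
The Ccn1 window held 1 match to each of these 3 motifs, from -103 to -98, from -59 to -54 (as ACGTCA, the reverse complement) and from -25 to -20 relative to the start. Of 32851 such windows in the table, 12.6% held the TEAD core, 6.47% the cAMP response element core and 12.4% the TATA box. Neither window matched the SRF CArG box (in 1.47% of windows) or TGANTCA, the AP-1 site (in 6.75%), and the Ccn6 window matched none of the 5 motifs. Both windows had 54.8% G and C. The Ccn1 window held 15 CpG dinucleotides and the Ccn6 window 6, which equals the median of all windows. A match describes these letters and is not shown to be a bound site.

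**Figure D1:**
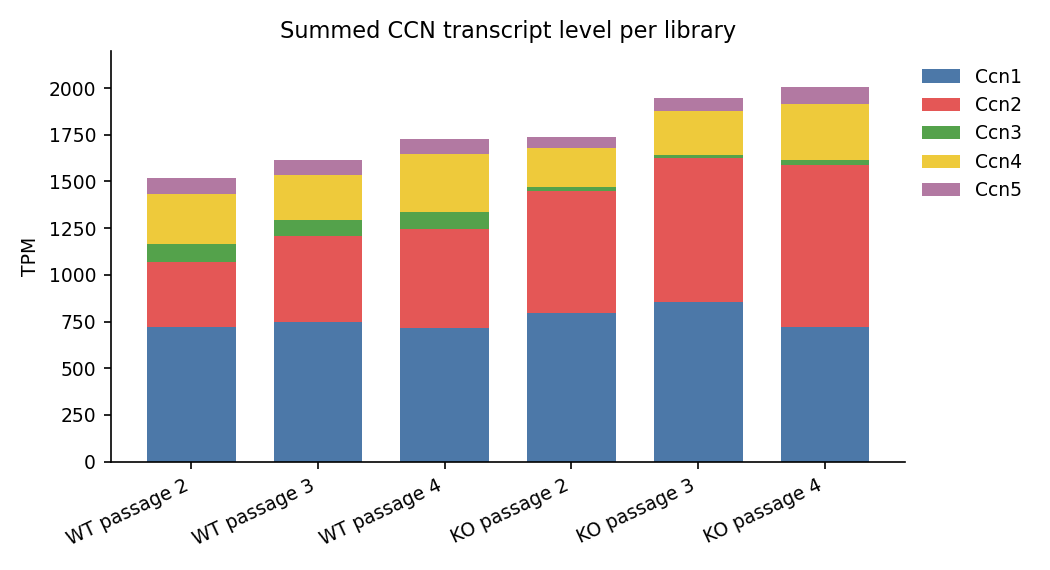
Summed level of Ccn1 to Ccn5 in TPM (vertical axis) for each of the 6 libraries, stacked by gene. Ccn2 takes 37.6% to 43.2% of the sum in KO against 22.8% to 30.7% in WT, and the thin Ccn3 layer of the WT bars shrinks to 0.599% to 1.27% in KO.

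The make-up of the family differed between genotypes more than its sum. Ccn1 held 45.1 ± 3.15% of the summed TPM of the 6 genes in WT and 41.9 ± 5.24% in KO (mean ± SD, n = 3). The share of Ccn2 was 27.3 ± 4.06% in WT and 40.2 ± 2.82% in KO, and that of Ccn3 was 5.55 ± 0.593% and 0.991 ± 0.351%. The share of Ccn4 was 16.9 ± 1.76% in WT and 13.0 ± 1.68% in KO, and for Ccn5 the shares were 5.20 ± 0.543% and 3.92 ± 0.618%. Ratios within a library do not depend on how libraries are scaled to each other. The Ccn2 to Ccn1 ratio was 0.480, 0.617 and 0.739 in WT at passages 2, 3 and 4 and 0.819, 0.905 and 1.20 in KO. The Ccn2 to Ccn3 ratio was 3.66, 5.37 and 5.98 in WT and 34.1, 66.3 and 33.9 in KO. Neither ratio overlapped between genotypes. These shares and ratios are descriptions with no test. The sum was 1621 ± 103 TPM in WT and 1897 ± 142 TPM in KO, without overlap, but in CPM the sums overlapped (2151 to 2743 in WT and 2561 to 2618 in KO).

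The comparison of KO with WT asks which members differed between the genotypes. Ccn3 was the 1 member called lower in KO by the quasi-likelihood test of edgeR at an adjusted p under 0.05, and 0 of the 5 tested members were called higher. Over all 16603 genes tested 2.48% were called, 1.55% as lower and 0.934% as higher. On the log2(TPM + 1) scale the called genes split into 219 higher and 168 lower, against 155 and 257 with TMM. Ccn3 had 145, 158 and 151 CPM in the WT libraries of passages 2, 3 and 4, and 32.5, 18.0 and 36.8 CPM in KO. The WT values lay close together, and every KO value was far below them. From a WT mean of 151 ± 6.49 CPM to a KO mean of 29.1 ± 9.84 CPM (SD, n = 3), this was a log2 change of -2.38 ± 0.25 SE (95% interval -2.98 to -1.79, edgeR adjusted p = 0.00979), or 5.22-fold lower. Among all tested genes 0.590% had a larger change in size. Within passages 2, 3 and 4 the KO library was 4.46-fold, 8.76-fold and 4.11-fold lower than the WT library. With passage as a block Ccn3 was also called (log2 -2.44, edgeR adjusted p = 0.00626). In unplanned fits it stayed called there without the libraries of passage 2, 3 or 4 (edgeR adjusted p = 0.00975, 0.00135 and 0.0173). With genotype alone the call was lost without the WT library of passage 3 (log2 -2.35, edgeR adjusted p = 0.0627) and without both libraries of passage 2 (log2 -2.51, adjusted p = 0.0653), while the change kept its size. With the genotype tag in place of the title, the KO-titled libraries of passages 3 and 4 count as WT and 1 KO library is left. The call was then also lost and the change was smaller (log2 -1.65).

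Ccn2 went the other way. It had 441, 703 and 749 CPM in WT at passages 2, 3 and 4 and 920, 988 and 1031 CPM in KO, so that every KO library was above every WT library. Groups without overlap were found for 27.2% of tested genes, with KO above WT for 13.1% and below for 14.1%. The log2 change was 0.63 ± 0.20 SE (95% interval 0.18 to 1.09), and it did not pass over all genes (edgeR adjusted p = 0.128). Deviations of same-passage libraries correlated at 0.488 and 0.416 for passages 2 and 4, but only at 0.137 for passage 3. With passage as a block Ccn2 was called higher in KO (log2 0.67 ± 0.14 SE, edgeR adjusted p = 0.0267), as were 4.69% of all genes. That fit called 11.1% of genes in either direction and 6.37% as lower, and of the family it called Ccn2 and Ccn3. The KO to WT ratio of Ccn2 was 2.09 at passage 2, 1.41 at passage 3 and 1.38 at passage 4, and the blocked call was lost without the libraries of passage 2 (log2 0.48, edgeR adjusted p = 0.0789) or of passage 3 (log2 0.77, adjusted p = 0.130). DESeq2 also called it (log2 0.64, adjusted p = 0.0282), with Ccn3, as it did 10.4% of all genes. With the genotype tag, which leaves 1 KO library, the difference of Ccn2 was 0.23.

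**Figure D2:**
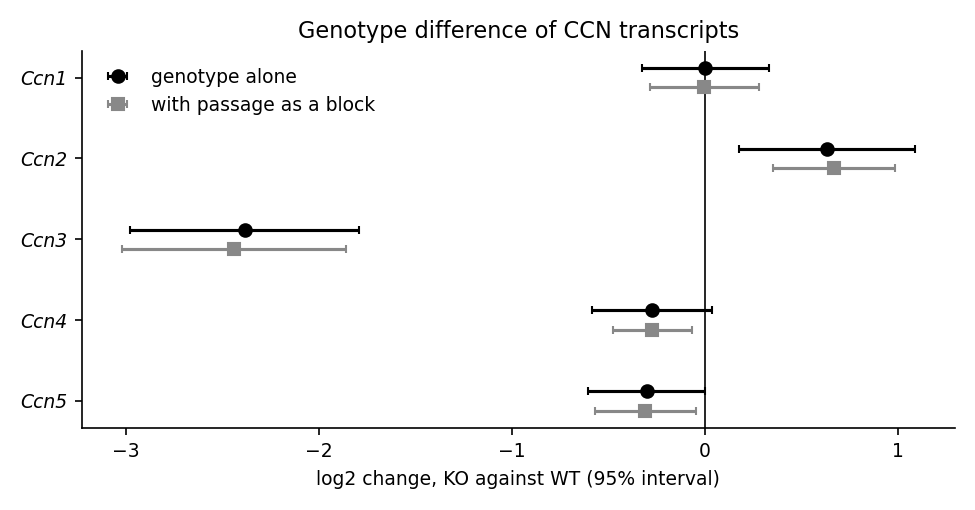
Log2 change of KO against WT (horizontal axis) for the 5 tested members, as the edgeR estimate with its 95% interval, from genotype alone (black circles) and with passage as a block (grey squares). Ccn3 lies near -2.4 in both, Ccn2 near 0.63 and 0.67, Ccn1 at 0, and the intervals of Ccn4 and Ccn5 reach past 0 only with genotype alone.

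Ccn4 and Ccn5 were somewhat lower in KO without passing the test. Ccn4 had 721, 772 and 916 CPM in WT against 611, 633 and 749 CPM in KO. Its KO library was below the WT library at each passage, by 1.18-fold, 1.22-fold and 1.22-fold, but the ranges overlapped because the levels of both genotypes were higher at later passages. The log2 change was -0.27 ± 0.13 SE (95% interval -0.58 to 0.04, edgeR adjusted p = 0.293, and 0.0891 with the block). It was -0.16 without the WT library of passage 4 and -0.15 on the log2(TPM + 1) scale. Ccn5 had 76.81, 90.7 and 78.1 CPM in WT against 57.8, 64.9 and 76.78 CPM in KO. Its groups did not overlap in CPM, but the highest KO and the lowest WT value almost touched, and in TPM they overlapped. The log2 change was -0.30 ± 0.13 SE (95% interval -0.60 to 0.0021, edgeR adjusted p = 0.237, and 0.114 with the block), and it was -0.19 on the log2(TPM + 1) scale.

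Ccn1, the most abundant member of the family in WT, showed no measurable difference. It had 767, 953 and 848 CPM in WT against 939, 914 and 721 CPM in KO. The KO library was the higher of the pair at passage 2 and the lower at passages 3 and 4. The log2 change was 0.0030 ± 0.14 SE (edgeR adjusted p = 0.993) with a 95% interval from -0.33 to 0.33.

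The 5 tested members had a median log2 change of -0.27, against -0.01 over all genes tested, and 3 of the 5 (Ccn2, Ccn3 and Ccn5) had groups without overlap in CPM, against 27.2% of all genes. KO and WT differed in the same direction at all 3 passages for 4 of the 5 (Ccn2 higher, Ccn3, Ccn4 and Ccn5 lower), as did 51.6% of all genes. Genotype accounted for 93.6% of the sum of squares of log2 CPM over the 6 libraries for Ccn3, 65.1% for Ccn2, 54.02% for Ccn5, 49.6% for Ccn4 and 0.0017% for Ccn1. The median over all tested genes was 28.1%. As a description over the same 6 libraries, Ccn3, Ccn4 and Ccn5 correlated with each other with Pearson r from 0.74 to 0.76, and Ccn2 had r = -0.77 with Ccn3.

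**Figure D3:**
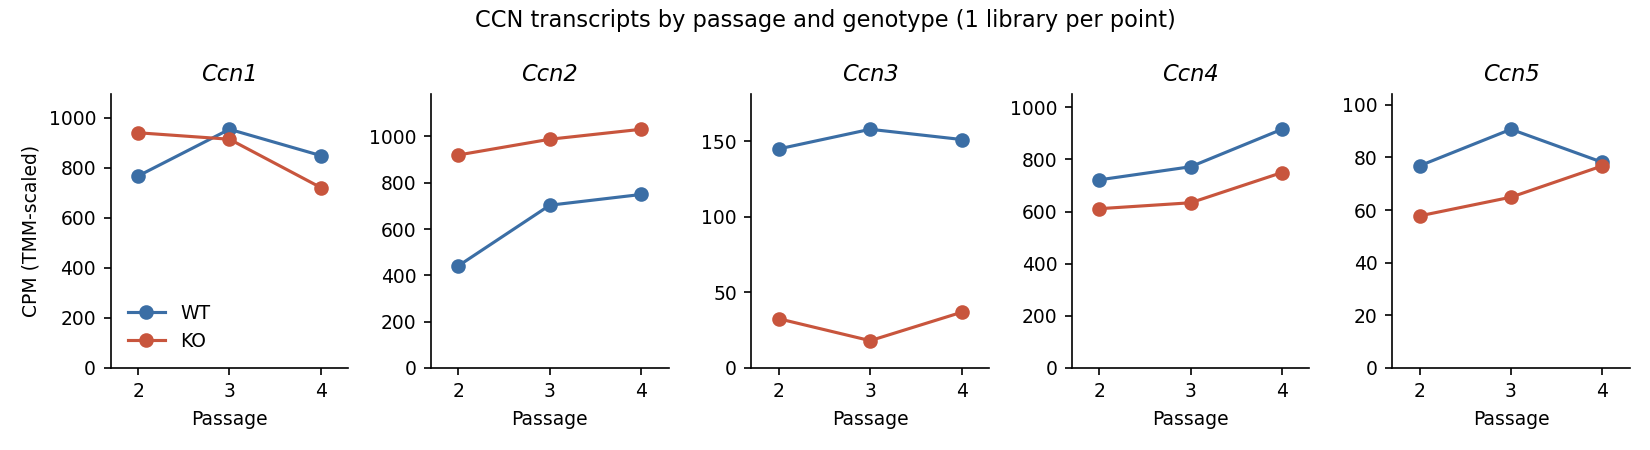
CPM (vertical axes, each from 0) of Ccn1 to Ccn5 against passage (horizontal axes), with 1 library per point, WT in blue and KO in red. The lines of Ccn2, Ccn3 and Ccn4 do not cross, those of Ccn5 meet at passage 4 (78.1 and 76.78 CPM), and those of Ccn1 cross between passages 2 and 3.

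The passages ask whether members changed as the cultures were carried on. By edgeR 0 of the 5 were called for a linear slope with genotype as a covariate, against 6.25% of all genes (2.78% with a positive and 3.48% with a negative slope), while Ccn2 and Ccn4 had an unadjusted p under 0.05, as did 21.2% of all genes. DESeq2 called Ccn4 (log2 0.16 per passage, adjusted p = 0.0474) and 9.03% of all genes. Both Ccn2 and Ccn4 had more CPM at each later passage in WT and in KO, a pattern of 9.47% of all genes, while 8.91% had fewer CPM at each later passage in both. The slope of Ccn4 was 0.16 ± 0.05 SE on the log2 scale per passage (edgeR adjusted p = 0.137). Its slopes were alike in both genotypes, 0.17 ± 0.08 in WT and 0.15 ± 0.08 in KO. Passage held 50.1% of its sum of squares and genotype 49.6%, which left 0.326% for the rest, against a median of 17.2% over all genes. For Ccn2 the common slope was 0.23 ± 0.09 SE (edgeR adjusted p = 0.186), with 0.38 ± 0.10 in WT and 0.08 ± 0.10 in KO. Without the WT library of passage 2 the common slope was 0.076. Without the filter on low counts the slope of Ccn2 was called (log2 0.21, edgeR adjusted p = 0.0268).

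Ccn1 had fewer CPM at each later passage in KO (slope -0.19 ± 0.10) and its highest WT value at passage 3 (slope 0.07 ± 0.10). Ccn5 had more CPM at each later passage in KO (slope 0.21 ± 0.09), whereas its WT slope was 0.01 ± 0.09. Ccn3 had no direction in either genotype, with slopes of 0.03 ± 0.22 in WT and 0.09 ± 0.21 in KO. Of these slopes within a genotype 0 of 10 were called (edgeR adjusted p from 0.166 to 0.964), against 0.807% of all genes in WT and 0.952% in KO. By edgeR 0 of the 5 members were called for a difference between the slopes, and 0 had an unadjusted p under 0.05. The smallest was that of Ccn2 (KO minus WT -0.30 ± 0.14 SE per passage, 95% interval -0.65 to 0.05, edgeR adjusted p = 0.758). It was -0.025 without the WT library of passage 2, -0.63 without that of passage 4 and -0.10 on the log2(TPM + 1) scale. Over all genes 0% were called and 6.85% had an unadjusted p under 0.05. DESeq2 called 83 genes, 0.575% of those it tested, and 0 members of the family.

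Genes with the pattern most like each member were sought among 10730 candidate protein-coding genes, by the root mean square (RMS) difference of log2 CPM after centring each gene on its mean over the 6 libraries. They were Podn, a leucine-rich matrix proteoglycan gene, Cttnbp2, which encodes a cortactin-binding protein, and Col8a2, a short-chain collagen gene, for Ccn3 (RMS 0.26, 0.27 and 0.32, r from 0.97 to 0.98). Podn had 30.0, 22.1 and 28.7 CPM in WT against 7.61, 3.30 and 5.31 CPM in KO. Cttnbp2 had 23.1, 29.5 and 19.4 CPM in WT against 5.34, 4.08 and 5.12 CPM in KO. Both fell in KO (log2 -2.33 and -2.32, edgeR adjusted p = 0.0155 and 0.00301), and Col8a2 had a log2 change of -2.14 (adjusted p = 0.0568). All nearest genes were chosen for their likeness to a member in these same 6 libraries. Their genotype changes and p-values therefore follow from the choice and are no separate support. Ccn3 itself had an SD of 1.38 in log2 CPM over the 6 libraries, and the median SD of all tested genes was 0.278.

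**Figure D4:**
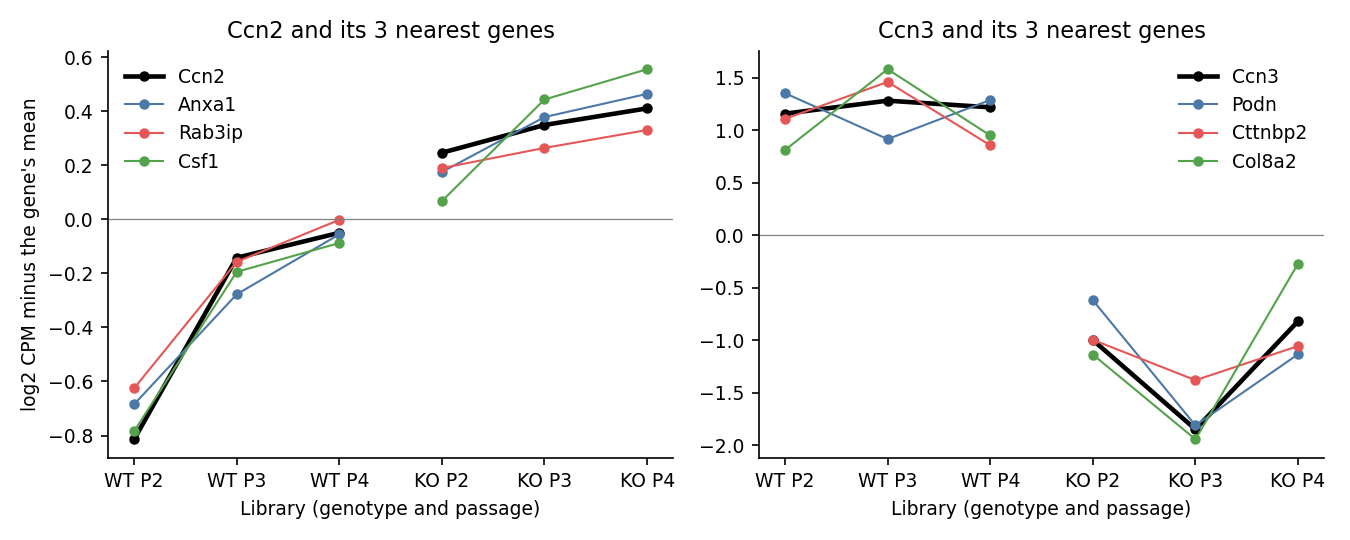
Log2 CPM minus each gene's mean (vertical axes) in the 6 libraries (horizontal axes) for Ccn2 (left) and Ccn3 (right), each in black with its 3 nearest genes in colour. The Ccn2 group rises from WT passage 2 to KO passage 4, and the Ccn3 group drops between WT and KO, lowest at KO passage 3 for all 4 genes shown.

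For Ccn2 the nearest were Anxa1, an annexin gene, Rab3ip, a RAB exchange factor gene, and Csf1, the macrophage growth factor gene (RMS 0.09, 0.10 and 0.11, r from 0.972 to 0.997). Anxa1 had 310, 412 and 480 CPM in WT against 563, 649 and 688 CPM in KO, and Csf1 had 507, 763 and 822 CPM in WT against 915, 1188 and 1284 CPM in KO. Like Ccn2, the 3 genes did not pass for genotype, with edgeR adjusted p from 0.0911 to 0.147. The nearest genes were Mpc1, Rnaseh2a and Tgif2 for Ccn1, Ngly1, Golga5 and Ttc28 for Ccn4, and Sfi1, Parp6 and Fbxo3 for Ccn5, with RMS from 0.02 to 0.04. Small changes are easily matched among this many candidates.

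Known receptors and binding partners of CCN proteins were measured beside them. Of 21 tested genes of 22 listed, 1 rose in KO and 1 fell (edgeR), with a median log2 change of -0.15. With passage as a block 2 rose and 3 fell. Itga6, an integrin chain, was called higher there, and Itgam (also a macrophage marker) and Notch1 lower, and the 3 were not called with genotype alone. Itga5, the alpha chain of the fibronectin receptor, had 507, 521 and 460 CPM in WT against 738, 737 and 671 CPM in KO (log2 0.53 ± 0.10 SE, adjusted p = 0.0439). Dcn, the small proteoglycan decorin, had 509, 679 and 488 CPM in WT against 325, 306 and 242 CPM in KO (log2 -0.94 ± 0.17 SE, adjusted p = 0.0370). The integrin chains Itgav (log2 0.10) and Itgb1 (log2 0.05), the scavenger receptor Lrp1 (log2 -0.17) and the heparan sulfate carrier Sdc4 (log2 -0.23) were not called. Notch1, whose product binds CCN3, averaged 60.2 ± 3.41 CPM in WT libraries and 42.6 ± 5.43 CPM in KO libraries (log2 -0.50, edgeR adjusted p = 0.0747, and 0.0276 with the block). Among 12 tested NOTCH receptors, ligands and targets 0 were called by edgeR, 3 had an unadjusted p under 0.05, DESeq2 called 2 and the blocked fit 1. That 1 gene was Notch1 again, which is in both lists. Over all genes 21.3% had an unadjusted p under 0.05 for genotype and DESeq2 called 10.4%, and the counts in the lists below are to be read beside these shares.

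Genes of pathways known to drive Ccn1 and Ccn2 were counted in the same way. Of 20 YAP and TEAD targets outside the family 2 rose and 1 fell, with a median of 0.14. Ankrd1, a muscle ankyrin-repeat gene, rose from 22.2, 23.2 and 33.2 CPM in WT to 75.4, 82.9 and 75.3 CPM in KO (log2 1.58 ± 0.16 SE, edgeR adjusted p = 0.00757), Fjx1 rose (log2 0.87, adjusted p = 0.0336) and Ccdc80, a matrix protein gene, fell (log2 -1.01, adjusted p = 0.0155). Axl (log2 0.27) and Amotl2 (log2 -0.31), often used beside Ccn1 and Ccn2 as readouts, were not called. Of 20 YAP, TEAD and Hippo regulators edgeR called 0 (4 at an unadjusted p under 0.05, 1 by DESeq2, 1 with the block), and Yap1 averaged 252 ± 29.6 CPM in WT libraries and 253 ± 29.0 CPM in KO libraries. Of 15 SRF and MRTF genes 2 rose, the smooth muscle actin gene Actg2 (log2 1.35, edgeR adjusted p = 0.0140) and the tropomyosin gene Tpm1 (log2 0.66, adjusted p = 0.0399), with a median of 0.37. With passage as a block 6 rose and 3 fell among the YAP and TEAD targets, and 6 rose and 2 fell among the SRF and MRTF genes.

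Of 20 TGF-beta responsive genes 4 fell and 0 rose (median -0.15). Tgfbi, a secreted matrix adaptor, fell from 198 ± 28.8 to 51.5 ± 10.7 CPM (SD, n = 3, log2 -1.95 ± 0.18 SE, edgeR adjusted p = 0.00483), and the other 3 were the fibrillar collagen genes Col3a1 (log2 -1.61), Col1a2 (log2 -1.09) and Col1a1 (log2 -0.95). Tgfb1, the ligand gene itself, had a log2 difference of 0.02 and was not called. Of 11 tested WNT targets edgeR called 0 (5 at an unadjusted p under 0.05, 2 by DESeq2, 3 with the block). Of 15 other matricellular genes 3 fell and 0 rose (median -0.41), namely the tenascin gene Tnn (log2 -2.20), the fibulin gene Fbln1 (log2 -1.06) and the thrombospondin gene Thbs3 (log2 -0.67), with edgeR adjusted p from 0.0274 to 0.0359. With passage as a block, 2 TGF-beta responsive genes rose and 6 fell, as did 1 and 6 of the other matricellular genes. Postn, called lower in that fit, is in both lists. These counts describe the lists and are to be read beside the 2.48% of all genes called by edgeR, 11.1% with the block, 10.4% by DESeq2 and 21.3% at an unadjusted p under 0.05.

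Marker genes of fibroblasts and of other cell types were measured in the same libraries. Fewer cells of a type and less RNA per cell cannot be told apart in bulk samples. Of 10 fibroblast markers 5 fell in KO (Col3a1, Pdgfra, Col1a2, Col1a1 and Dcn) and 0 rose, with a median of -0.94. The 3 collagen genes are also in the TGF-beta list, and Dcn was counted among the binding partners. Uncalled were Lum (log2 -1.96), Pdgfrb (log2 -0.35), Thy1 (log2 -0.21), Vim (log2 0.20) and S100a4 (log2 0.41). With passage as a block 6 fell, with Lum added, and 0 rose. Pdgfra had a log2 change of -1.51 (edgeR adjusted p = 0.0107). Macrophage markers summed to 57.9 to 398 CPM in WT against 41.2 to 286 CPM in KO, and all 10 fell with passage. Endothelial markers summed to 235 to 269 CPM in WT against 111 to 178 CPM in KO. Flt1, a VEGF receptor gene with 214, 261 and 239 CPM in WT against 152, 93.8 and 106 CPM in KO, made up most of that sum and was the 1 of 9 that fell in KO (log2 -1.02, edgeR adjusted p = 0.0382). The list's median was 0.65, opposite in sign to its sum. Pecam1 was at 0.67 ± 1.06 SE, Cdh5 at 0.88 ± 1.21 and Kdr at 0.55 ± 0.16, none of these 3 called. Also uncalled were Tie1, Emcn and Esam at 0.65, 0.81 and 1.12, Vwf at 0.07 and Tek at -0.16. Pecam1 went from 3.26 CPM at passage 2 to 0.248 CPM at passage 4 in WT, and from 4.07 to 0.318 CPM in KO. By edgeR 5 of 9 endothelial markers fell with passage, against 3.48% of all genes. Smooth and skeletal muscle markers summed to 1825 to 3075 CPM and 2861 to 4219 CPM (1 of 7 rose in KO, Acta1, log2 2.57, edgeR adjusted p = 0.0391, with a median of 0.76). With passage as a block 5 of 7 rose in KO, namely Acta1, Myh11, Des, Cnn1 and Acta2, with edgeR adjusted p from 0.0018 to 0.035. Cnn1 and Acta2 are also in the SRF and MRTF list and were counted there.

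Cartilage and bone markers summed to 79.0 to 85.6 CPM in WT against 71.2 to 80.6 CPM in KO, where 1 of 6 rose, Col2a1 (log2 2.62, edgeR adjusted p = 0.0418). Col2a1 was low, with 0.898, 0.651 and 0.207 CPM in WT against 2.38, 4.15 and 4.64 CPM in KO. The list's median was -0.23. With the block 1 gene rose and 2 fell, Sox9 (log2 -0.63) and Sp7 (log2 -1.51). Neural and glial markers summed to 646 to 803 CPM and 542 to 674 CPM, epithelial markers to 1.24 to 21.7 CPM and 4.48 to 16.05 CPM, and adipocyte markers to 293 to 541 CPM and 154 to 307 CPM. Lpl, the lipoprotein lipase gene, made up most of the adipocyte sum, with 455, 376 and 276 CPM in WT against 225, 132 and 135 CPM in KO (log2 -1.17, edgeR adjusted p = 0.0727, and 0.0041 with the block). The medians were 0.05 for neural, 0.27 for epithelial and -0.12 for adipocyte markers. In these 3 lists and among macrophage markers edgeR called 0 genes for genotype. At an unadjusted p under 0.05 the counts were 1 neural, 0 epithelial, 1 adipocyte and 0 macrophage, and DESeq2 called the same numbers. With the block they were 2 (1 higher and 1 lower), 1 higher, 1 lower and 4 lower. By edgeR 3 of 8 neural, 3 of 7 epithelial and 6 of 7 adipocyte markers also fell with passage, against 3.48% of all genes. Among muscle markers 2 rose and 2 fell with passage, 1 cartilage and bone marker rose, and 0 fibroblast markers were called. No marker of the 8 lists was at 0 in all 6 libraries, but not every marker was clearly detected. Matn1, for instance, had at most 0.0287 CPM, less than 3 counts correspond to in any library. The part of other cell types in the differences of Ccn2 and Ccn3 was not tested.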

How the data were processed

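The submitters' processing notes name Trimmomatic 0.39, RSEM and build GRCm38. RSEM's settings, the annotation release and the handling of strand were not stated there. Per the file headers, the deposited values are expected counts, TPM, FPKM and effective lengths of each gene. The authors' expected counts are not whole for 12.0% to 15.8% of genes, since RSEM divides ambiguous reads among genes. The deposited TPM values correct for length within a library, and the deposited FPKM values served only as an alternative for shares.

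Symbols came from GENCODE M21 (99.4% of 55487 IDs matched). Counts were rounded, filtered by genotype (minimum count 10, 16603 genes left), TMM-scaled and tested with edgeR 4.0.16 (R 4.3.3, robust quasi-likelihood, 2-sided), with Benjamini-Hochberg adjustment over all genes. Residual degrees of freedom were 4 for genotype, 3 for the passage slope and 2 for the interaction. CPM are TMM-scaled. Log2 CPM used a prior count of 2. SE and 95% intervals follow from the F statistic. DESeq2 1.42.0 and limma 3.58.1 on log2(TPM + 1) and log2(TPM + 0.1) were alternatives. The scripts were tested on simulated counts. Between genotypes, deviations of same-passage libraries from their group means correlated at 0.488, 0.137 and 0.416 for passages 2, 3 and 4. The main genotype fit did not pair libraries, and the fit with passage as a block was an alternative. Pairing in the blocked fit rests on the passage in the labels.

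The members and the 17 gene lists were chosen with earlier results of these data known. Genes named were the members, their 3 nearest genes (mean log2 CPM of at least 2) and, per list, up to 4 called genes with the largest change. Other uncalled genes, and the fifth fibroblast marker, were named after their values were seen.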

Additional observations from a re-analysis of the deposited data

How the results depend on the processing

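Of the 5 tested members, Ccn3 alone was called for genotype, and 2 members (Ccn2 and Ccn3) were called by DESeq2, by limma on log2(TPM + 1) and on log2(TPM + 0.1), and with passage as a replicate block. Following the genotype tag, or leaving out both passage 2 libraries, called 0, and leaving out 1 library called 0 to 1. The block without passage 4, chosen after seeing the data, called 3, with Ccn5 added. For the passage slope DESeq2 called 1 and the fit without a filter 1, against 0. The cause was not tested. Under the tag, which leaves 1 KO library and counts the KO-titled libraries of passages 3 and 4 as WT, Ccn3 had a log2 change of -1.65. The block changed no other member's call. The direction of Ccn1 for genotype reversed with upper-quartile scaling (log2 -0.016), with the block (-0.0014), without passage 2 (-0.14) and with both (-0.15), and ran from -0.076 to 0.11 without 1 library. Without 1 library, slopes ran from -0.19 to 0.052 for Ccn1, 0.076 to 0.33 for Ccn2, -0.14 to 0.22 for Ccn3 and 0.048 to 0.21 for Ccn5, and interactions from -0.63 to -0.025 for Ccn2, -0.88 to 0.997 for Ccn3, -0.12 to 0.067 for Ccn4 and -0.074 to 0.41 for Ccn5. The interaction of Ccn4 was 0.16 on both TPM scales, where the median of all genes was 0.15 and 0.19 against 0.016, and the genotype median was 0.10 on the log2(TPM + 0.1) scale against -0.01. Over all genes the genotype count of 412 became 1560 (DESeq2), 846 (no filter), 1835 (block), 59 (without passage 2), 0 (tag, edgeR, with 702 at an unadjusted p under 0.05) and 38 to 847 without 1 library. The slope count of 1038 became 1690 (DESeq2), 2443 (no filter) and 278 to 1286 without 1 library, and the interaction count of 0 became 83 (DESeq2), 289 (no filter), 2 and 10 (TPM) and 0 to 10 without 1 library. Ccn6 had under 3 counts per library, so no change could be read for it.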
